A study of Mus musculus with 24 samples.

Results

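The 10 genes described here mark the layers of the cerebral cortex. They were taken by symbol, 5 of them as upper layer markers (Cux1, Cux2, Rorb, Rasgrf2 and Lamp5) and 5 as deep layer markers (Fezf2, Bcl11b, Tle4, Foxp2 and Etv1). All 10 were present among the 15456 genes measured. RNA was sequenced from the medial prefrontal cortex (mPFC) of 24 mice in 4 groups of 6. The mice were male, of the inbred strain BALB/c OlaHsd by the study's methods, and at postnatal week 11. The control group is labelled as untreated and, by the study's methods, received PBS. The duloxetine group was injected daily into the peritoneum with duloxetine, a drug used against depression that inhibits the uptake of serotonin and noradrenaline into neurons. A further group was gavaged repeatedly with the gut bacterium Ruminococcus flavefaciens (R. flavefaciens), and the last group received both treatments. No genetic change is labelled in any group. Each library came from 1 mouse and from a core of frontal tissue in which the layers were not separated. The values are counts that the authors normalized, each library by 1 size factor, and the reads recovered from them ranged from 12811413 to 15607343 per mouse. The median depth was 13591497 reads in the control group, 14536037 with duloxetine, 13943370 with R. flavefaciens and 14621656 with both.

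The neurons of the neocortex lie in layers that differ in the time at which their neurons are born and in the targets of their axons. Neurons of the upper layers project mainly to other cortical areas. Neurons of layer 5 project to the striatum, brainstem and spinal cord, and those of layer 6 mainly to the thalamus. The mPFC of the mouse has no clear layer 4 and receives dense monoaminergic input.

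Among the upper layer markers, Cux1 and Cux2 are homeobox transcription factors of layers 2 to 4 that shape dendrites and spines. Rorb is a nuclear receptor best known from layer 4, Rasgrf2 is an exchange factor for small GTPases in upper layer neurons, and Lamp5 is a membrane protein of upper layer neurons and of a class of interneurons. Among the deep layer markers, Fezf2 is a zinc finger factor that specifies neurons with subcortical projections, and Bcl11b (CTIP2) acts downstream of it in layer 5. Etv1 is an ETS factor of layer 5. Tle4 is a corepressor and Foxp2 a forkhead factor, both of layer 6. Bcl11b and Foxp2 are also expressed in the striatum, which lies below the cortex.

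The labelled tissue was checked by its markers. All 6 genes listed for excitatory neurons were measured, and the most abundant of them, Camk2a, had a mean of 52794 normalized counts. The 10 striatal genes summed to 2663 to 3860 normalized counts in 22 mice, to 8360 in mouse 8_4 of the R. flavefaciens group and to 5218 in mouse 11_4 of the group given both. The most abundant striatal gene was Pde10a, with a mean of 1235. In mouse 8_4 the choroid plexus genes also summed to 791, while the other group members ranged from 25 to 108. Mice 8_4 and 11_4 thus stood apart from the other mice in the striatal genes, and mouse 8_4 also in the choroid plexus genes. The counts that lead the comparisons are also given without them, a choice made after the values were seen.

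Levels between genes were compared per kilobase of the longest transcript. Over the 24 mice Lamp5 was the most abundant, at 1021 normalized counts per kilobase. Rasgrf2 followed at 432, Cux2 at 327, Fezf2 at 309, Etv1 at 238, Tle4 at 237 and Bcl11b at 202. Cux1 at 64.1, Rorb at 61.8 and Foxp2 at 35.3 were the least abundant. Neighbours in this order were not always apart. In controls, Cux2 had 330 ± 13.5 (SD, n = 6) and Fezf2 342 ± 40.1 per kilobase. Etv1 had 252 ± 13.7 and Tle4 253 ± 28.7, and Cux1 had 61.4 ± 4.5 and Rorb 62 ± 4.82, so that these pairs did not differ beyond their spread. All 10 genes were well covered, the smallest number of recovered reads in any mouse being 113 for Foxp2. The spread between mice of a group differed between genes. The within-group SD on the log2 scale was 0.070 for Cux2 and 0.088 for Cux1, and 0.461 for Foxp2, 0.322 for Lamp5 and 0.253 for Tle4. The highest value of Foxp2 in any mouse was 3.55-fold the lowest, and that of Cux2 1.25-fold.

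Upper layer markers were close in mean between the groups, as shown in the plot of values by mouse. Cux1 ranged from 718 to 866 normalized counts in controls, with a median of 781. It ranged from 769 to 870 with duloxetine (median 804), from 777 to 912 with R. flavefaciens (median 800) and from 809 to 933 with both (median 881). The groups overlapped, although 3 of 6 mice given both were above the highest control and 6 of 6 above the control mean. Cux2 was the steadiest gene of the 10, and its means were 2902 ± 118 (SD, n = 6) in controls, 2791 ± 110 with duloxetine, 2817 ± 185 with R. flavefaciens and 2978 ± 125 with both. Rorb, with 576 ± 44.8 in controls, had 566 ± 63.1, 559 ± 82.7 and 597 ± 62.3 in the treated groups in the same order. None of these groups was apart from the others.

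Rasgrf2 and Lamp5 differed between groups more in spread than in mean. Rasgrf2 ranged from 2520 to 2767 in controls (median 2652), from 2002 to 2746 with duloxetine (median 2417), from 1993 to 3124 with R. flavefaciens (median 2529) and from 2085 to 2657 with both (median 2409). Of the mice given duloxetine alone, 4 of 6 were below the lowest control, as were 3 of 6 in each group with bacterium. Lamp5 ranged from 1672 to 2357 in controls (median 1898), from 1628 to 2347 with duloxetine (median 1920), from 1394 to 2925 with R. flavefaciens (median 1961) and from 1370 to 2612 with both (median 2074). In each group with bacterium, 2 of 6 mice were below all controls and 2 of 6 above all controls.

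**Figure D1:**
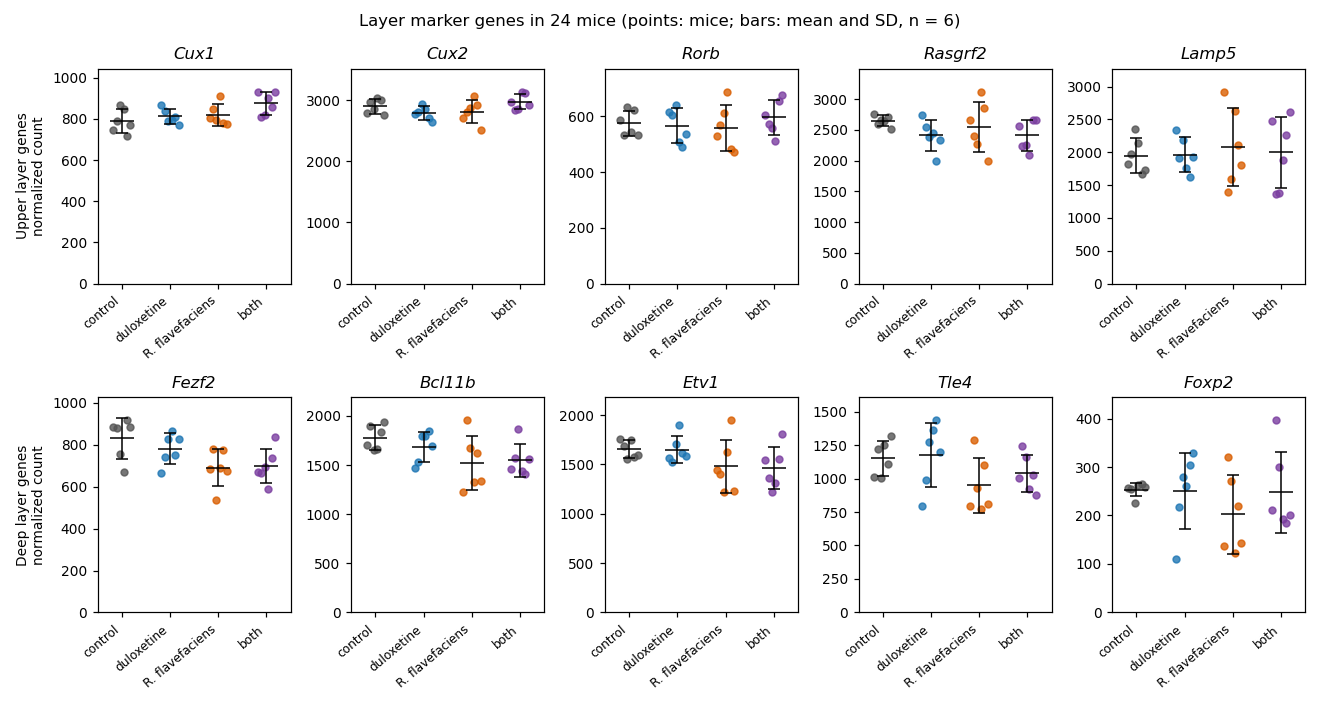
Normalized counts (y axis, linear from 0) of the 5 upper layer genes (top row) and the 5 deep layer genes (bottom row) in each of 24 mice (points) by group (x axis), with the group mean and SD (bars, n = 6). Fezf2, Bcl11b and Etv1 have lower means in the groups with R. flavefaciens while all groups overlap, and Foxp2 spreads from 226 to 264 in controls and from 111 to 396 in the treated groups.

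Deep layer markers had lower means in the groups with R. flavefaciens. Fezf2 ranged from 669 to 916 normalized counts in controls (median 882), from 666 to 868 with duloxetine (median 790), from 538 to 779 with R. flavefaciens (median 688) and from 590 to 835 with both (median 681). Every mouse given R. flavefaciens alone was below the control mean of 832, as were 5 of 6 mice given both, but the ranges overlapped because the lowest control stood at 669. Bcl11b ranged from 1652 to 1938 in controls (median 1768), from 1470 to 1842 with duloxetine (median 1745), from 1230 to 1953 with R. flavefaciens (median 1479) and from 1404 to 1867 with both (median 1508). Of 6 mice each, 4 given R. flavefaciens and 5 given both were below every control. The highest value of each of these groups, in mice 8_3 and 11_4, lay in the control range or above it.

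Etv1, the other layer 5 gene, ranged from 1555 to 1759 in controls (median 1641), from 1527 to 1897 with duloxetine (median 1600), from 1223 to 1946 with R. flavefaciens (median 1423) and from 1219 to 1808 with both (median 1453). In each group with bacterium 4 of 6 mice were below every control, and 1 of 6 was above every control. The layer 6 gene Tle4 ranged from 1003 to 1315 in controls (median 1164), from 794 to 1434 with duloxetine (median 1235), from 771 to 1286 with R. flavefaciens (median 868) and from 875 to 1241 with both (median 1016). With R. flavefaciens alone 4 of 6 mice were below every control, and with both 2 of 6. Foxp2 ranged from 226 to 264 in controls (median 257), from 111 to 329 with duloxetine (median 270), from 123 to 321 with R. flavefaciens (median 182) and from 184 to 396 with both (median 206). All 3 treated groups held mice below and above the whole control range.

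The promoters of the deep layer markers are shown because 4 of these 5 genes were those with the smallest p-values for the bacterium (below). Windows of 300 bases, from 250 before to 50 after a transcription start, were taken from RefSeq (GRCm38.p6). Of the 10 genes 9 matched, with 14 windows, and Foxp2 did not match. The first window of each gene is printed. The windows of Fezf2 (chr14:12345816-12346115), Bcl11b (chr12:108003365-108003664) and Tle4 (chr19:14598134-14598433) lie on the minus strand, and the window of Etv1 (chr12:38779832-38780131) on the plus strand. Capitals mark GGGCGG, the GC box bound by Sp factors, on either strand (CCGCCC on the other).
Fezf2: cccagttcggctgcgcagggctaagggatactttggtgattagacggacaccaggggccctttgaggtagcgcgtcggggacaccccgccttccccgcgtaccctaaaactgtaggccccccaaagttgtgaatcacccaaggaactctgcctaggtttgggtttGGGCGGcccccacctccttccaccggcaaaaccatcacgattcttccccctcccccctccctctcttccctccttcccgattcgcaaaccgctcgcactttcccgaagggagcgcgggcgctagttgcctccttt
Bcl11b: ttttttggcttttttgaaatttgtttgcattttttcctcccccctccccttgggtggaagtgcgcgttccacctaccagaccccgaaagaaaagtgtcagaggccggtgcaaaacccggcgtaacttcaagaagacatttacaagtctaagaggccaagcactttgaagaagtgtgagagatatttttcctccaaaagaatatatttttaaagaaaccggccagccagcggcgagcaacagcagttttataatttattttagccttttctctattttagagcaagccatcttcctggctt
Tle4: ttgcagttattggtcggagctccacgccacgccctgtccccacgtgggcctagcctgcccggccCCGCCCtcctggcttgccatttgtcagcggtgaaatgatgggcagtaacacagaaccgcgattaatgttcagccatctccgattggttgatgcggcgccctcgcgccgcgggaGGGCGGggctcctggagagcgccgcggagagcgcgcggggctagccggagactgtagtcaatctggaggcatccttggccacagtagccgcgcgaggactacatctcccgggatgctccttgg
Etv1: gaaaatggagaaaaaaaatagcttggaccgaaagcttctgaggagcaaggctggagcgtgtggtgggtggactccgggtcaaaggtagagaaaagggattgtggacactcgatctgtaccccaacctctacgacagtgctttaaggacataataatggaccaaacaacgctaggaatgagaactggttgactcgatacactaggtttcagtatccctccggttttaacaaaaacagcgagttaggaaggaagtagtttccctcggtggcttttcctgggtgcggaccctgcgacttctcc
The 4 windows differ in composition. Fezf2 has 61.3 percent GC and 1 GC box, and Tle4 65 percent and 2 GC boxes, whereas Bcl11b has 43 percent and Etv1 48.7 percent and neither holds a GC box. A GC box was found in 35.7 percent of all 32851 RefSeq windows of this length, whose median GC content was 52.7 percent. The TATAAA motif, searched on both strands, is held by the Bcl11b window and by 13.6 percent of all windows. Etv1 and Tle4 each have a second window, not printed, of which that of Etv1 (chr12:38783461-38783760) holds 1 TATAAA motif and that of Tle4 (chr19:14597164-14597463) 2 GC boxes.

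Each comparison between groups was tested with limma across 14974 genes, with p-values adjusted over all of them. No layer marker passed an adjusted p of 0.05 in any of the 8 comparisons, nor with edgeR. With DESeq2, 1 of 10 passed in 1 comparison (Fezf2, below). For duloxetine alone against control, 0 of 10 markers passed the adjusted test and 0 of 10 an unadjusted p of 0.05. Of all genes tested, 0 percent passed the adjusted test and 3.83 percent the unadjusted one. The median log2 fold change was -0.03 over the upper and -0.08 over the deep markers, against -0.00 over all genes. The largest difference was that of Rasgrf2, at -0.14 with a 95% interval of -0.32 to 0.03. For Foxp2 the interval ran from -0.58 to 0.39, so that a sizeable difference was not detectable with this spread. Duloxetine averaged over both bacterial states likewise gave 0 of 10 at the adjusted and 0 of 10 at the unadjusted threshold, where 1.03 and 14.9 percent of all genes passed. Log2 fold changes of the markers lay between -0.11 (Rasgrf2) and 0.11 (Foxp2) there.

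For R. flavefaciens alone against control, all 5 deep markers had lower means, with a median log2 fold change of -0.27, while the median of the 5 upper markers was -0.04 and that of all genes 0.00. Fezf2 was lower by -0.27 ± 0.091 (SE, adjusted p = 0.112 by limma), Bcl11b by -0.24 ± 0.089 (adjusted p = 0.143) and Tle4 by -0.30 ± 0.129 (adjusted p = 0.198). Foxp2 had the largest difference, -0.41 ± 0.234, and Etv1 one of -0.18 ± 0.093. None of the 10 passed the adjusted test, which 0.0267 percent of all genes passed. At the unadjusted threshold 3 of 10 markers passed, against 19.6 percent of all genes. These 3 were deep markers with lower values, 3 of 5, against 10.8 percent of all genes. In these bulk libraries, fewer cells of a layer and less RNA per cell cannot be told apart. Without mouse 8_3, which had the highest Bcl11b, Tle4 and Foxp2 of its group, Bcl11b passed the adjusted test (-0.32, adjusted p = 0.0397 by limma). In that fit 427 of all genes passed, against 4 with all mice. Without mice 8_4 and 11_4, 4 of 5 deep markers passed the unadjusted threshold, and 2 of all genes passed the adjusted test. When each mouse was left out the count of deep markers ran from 2 (without mouse 2_1, 2_3, 3_3, 7_2 or 9_3) to 4 (without mouse 5_1, 8_3, 8_4, 9_2 or 12_4). The share of all genes at the unadjusted threshold was computed for the main fit only. Here and below, unadjusted counts from other fits therefore have no matching share, and a change in them may be shared by all genes. The log2 fold change of Bcl11b ran from -0.32 to -0.18 when each mouse was left out, and its adjusted p by limma from 0.0397 to 0.39.

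For both treatments against control, which shares the control mice with the previous comparison, all 5 deep markers again had lower means. Fezf2 was lower by -0.25 ± 0.091 (adjusted p = 0.183 by limma) and Bcl11b by -0.20 ± 0.089 (adjusted p = 0.253). The values of Etv1 (-0.18 ± 0.093), Tle4 (-0.15 ± 0.129) and Foxp2 (-0.09 ± 0.234) had the same sign. Cux1 was higher by 0.15 ± 0.053 (adjusted p = 0.174). Again 0 of 10 passed the adjusted test, against 0.1 percent of all genes, and 3 of 10 the unadjusted one, against 16.8 percent. Of the deep markers 2 of 5 were lower at the unadjusted threshold, against 8.73 percent of all genes. This count was 1 without any one of control mice 2_1, 3_1 and 3_3 or of mice 10_2 and 12_2, 3 without any one of mice 8_4, 9_2, 9_3 and 12_4, and 2 without mice 8_4 and 11_4. With only the groups compared in the fit it was 3, and 5 of 10 markers passed the unadjusted threshold. It was 1 after 75th percentile rescaling and after quantile normalization, where Bcl11b had -0.17 (adjusted p = 0.328 by limma) and -0.16 (adjusted p = 0.452). Medians were -0.18 for deep and 0.04 for upper markers.

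When R. flavefaciens was averaged over both duloxetine states, 12 mice against 12, the deep markers had a median log2 fold change of -0.21, the upper markers 0.02 and all genes 0.00. Fezf2 had the smallest p-value of the 10 genes, with -0.22 ± 0.064 and a 95% interval of -0.35 to -0.08 (adjusted p = 0.111 by limma). Its rank by p-value was 297 among the 14974 genes. Values were -0.18 ± 0.063 for Bcl11b (adjusted p = 0.138), -0.18 ± 0.065 for Etv1 (adjusted p = 0.159) and -0.23 ± 0.091 for Tle4 (adjusted p = 0.186), and Foxp2 had -0.21 with an interval of -0.55 to 0.14. Among the upper markers Cux1 was higher by 0.08 ± 0.038 (adjusted p = 0.249), and the intervals of Cux2 (-0.04 to 0.09), Rasgrf2 (-0.16 to 0.09) and Lamp5 (-0.22 to 0.26) included 0. The adjusted test was passed by 0 of 10 markers and by 0.0267 percent of all genes. The unadjusted test was passed by 5 of 10 markers, against 18.1 percent of all genes, and 4 of the 5 deep markers were lower at that threshold, against 10.4 percent of all genes. Without mice 8_4 and 11_4 this was 3 of 5. DESeq2 on recovered reads put Fezf2 past the threshold (-0.21, adjusted p = 0.0397). With DESeq2 361 of all genes passed, against 4 with limma. Over the 9 alternatives other than leaving out 1 mouse, the adjusted p of Fezf2 ran from 0.0397 to 0.222.

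Adding R. flavefaciens to duloxetine gave 0 of 10 at the adjusted threshold, where 0 percent of all genes passed, and 1 of 10 at the unadjusted one (Cux2, 0.09 ± 0.044), where 5.90 percent passed. The median log2 fold change was -0.16 over the deep and 0.08 over the upper markers. The unadjusted count ran from 0 to 3 when each mouse was left out (3 without mouse 5_1 or mouse 12_4), and it was 3 without mice 8_4 and 11_4 and 3 with only the groups compared in the fit. Adding duloxetine to R. flavefaciens gave 0 of 10 at both thresholds, where 2.23 and 19.7 percent of all genes passed. At the unadjusted one it was 2 after 75th percentile rescaling, after quantile normalization and without mouse 9_1, and 1 without mouse 11_3. The interaction, that is, whether the difference with R. flavefaciens depended on duloxetine, gave 0 of 10 adjusted (0 percent of all genes) and 1 of 10 unadjusted (7.53 percent). That gene was Cux2, at 0.14 ± 0.062 (adjusted p = 0.639 by limma). The interval of the interaction for Fezf2 ran from -0.16 to 0.37 and for Foxp2 from -0.28 to 1.10, so that the data did not show the deep markers to differ in their response with and without duloxetine, nor to respond alike. Over all alternatives run, the unadjusted count of the 10 markers was 0 or 1 for the interaction and for duloxetine alone or averaged, and 4 to 6 for R. flavefaciens averaged over duloxetine.

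**Figure D2:**
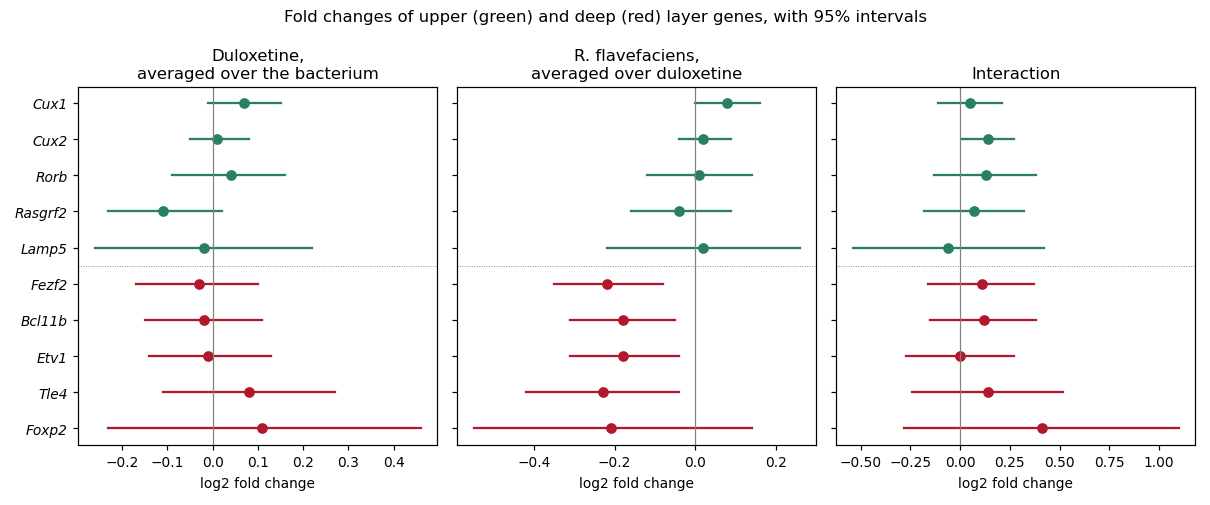
Log2 fold changes (x axes) of the 5 upper (green) and 5 deep (red) layer genes, with 95% intervals computed with 20 residual degrees of freedom, for duloxetine averaged over the bacterium, R. flavefaciens averaged over duloxetine and their interaction (12 mice against 12 for the averaged effects). The 5 deep genes lie at -0.23 to -0.18 for R. flavefaciens and the upper genes between -0.04 and 0.08, and no gene passed the adjusted test.

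Each mouse was then summarised by a score for each layer group, the mean over 5 genes of the log2 value after the mean of the gene over all mice was taken off. The scores are a description and were not tested. The deep layer score was 0.127 ± 0.077 (SD, n = 6) in controls, 0.076 ± 0.233 with duloxetine, -0.153 ± 0.240 with R. flavefaciens and -0.050 ± 0.130 with both. In each group with bacterium, 4 of 6 mice were below the lowest control and 0 above the highest. With duloxetine alone 2 of 6 were below the lowest control and 2 of 6 above the highest. The upper layer score was 0.007 ± 0.069, -0.028 ± 0.106, -0.004 ± 0.160 and 0.025 ± 0.149 in the same order. Upper minus deep, the score was -0.120 ± 0.143 in controls, -0.104 ± 0.319 with duloxetine, 0.148 ± 0.327 with R. flavefaciens and 0.075 ± 0.237 with both. R. flavefaciens minus control was thus 0.27, and the pooled SD within groups was also 0.27. That SD describes single mice and is not the error of a difference between group means. Averaged over duloxetine the difference was 0.22, and it ran from 0.18 to 0.28 when each mouse was left out in turn.

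The mice at the ends of this scale came from several groups. The highest values of upper minus deep were 0.587 in mouse 9_1 and 0.443 in mouse 7_2, both given R. flavefaciens, and 0.455 in mouse 5_1, given duloxetine alone. Mouse 5_1 had the lowest Foxp2 of all (111) and, of its group, the lowest Fezf2 (666), Bcl11b (1470) and Tle4 (794) as well as the highest Cux1 (870) and Lamp5 (2347). Mouse 9_1 had the highest Rasgrf2 (3124), Rorb (689) and Cux1 (912) of its group together with the lowest Tle4 (771) and Foxp2 (123). At the other end stood mice 6_2 with -0.402 and 6_1 with -0.319, given duloxetine, and mouse 8_3 with -0.298, given R. flavefaciens. Mouse 9_3 was low on both scores, with -0.196 for upper and -0.359 for deep.

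Across the 24 mice, after group means were taken off, the upper and deep scores had an r of -0.47 (Spearman's rho -0.45), and -0.46 without the 2 mice farthest from the median upper score. Within groups r was -0.92 in controls, -0.74 with duloxetine, -0.31 with R. flavefaciens and -0.44 with both (n = 6 each). The points of this and all following correlations share the library, its depth and its normalization, and they are given as a description. The 10 pairs of upper markers had r between 0.28 and 0.64, with a median of 0.40, and all were positive. Rasgrf2 and Lamp5 formed the closest pair (r = 0.64, rho = 0.73). The 10 pairs of deep markers had a median of 0.32 and ranged from -0.13 to 0.85.

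**Figure D3:**
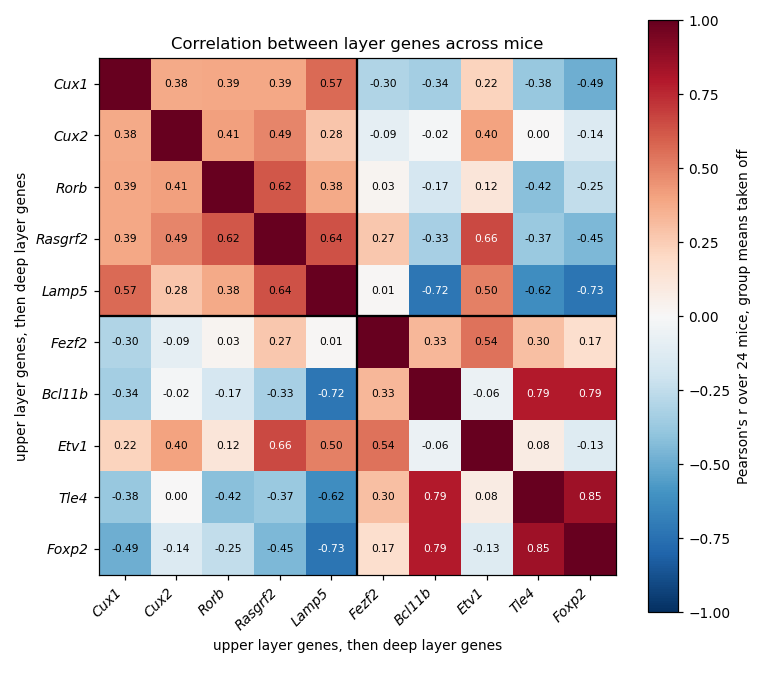
Pearson's r between each pair of the 10 layer genes (rows and columns, upper genes first) over 24 mice on the log2 scale, after group means were taken off. Bcl11b, Tle4 and Foxp2 form a block with r from 0.79 to 0.85, and Etv1 is nearer to Rasgrf2 (0.66) and Lamp5 (0.50) than to these 3 genes (-0.13 to 0.08).

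The deep markers did not move as 1 set. Bcl11b, Tle4 and Foxp2 moved closely together, with r = 0.79 for Bcl11b and Tle4, 0.79 for Bcl11b and Foxp2 and 0.85 for Tle4 and Foxp2. Without the 2 farthest mice these were 0.74, 0.74 and 0.75. Etv1 was apart from all 3, with r of -0.06, 0.08 and -0.13, but it moved with Fezf2 (r = 0.54), and with the upper markers Rasgrf2 (r = 0.66, rho = 0.64, 0.60 without the 2 farthest mice) and Lamp5 (r = 0.50). Fezf2 had r of 0.33 with Bcl11b and 0.30 with Tle4. Lamp5 was the upper marker most opposed to the deep ones, with -0.73 for Foxp2, -0.72 for Bcl11b and -0.62 for Tle4, and 0.01 for Fezf2. In mouse 9_2, which had the highest Etv1 of all (1946), Foxp2 was 220, and in mouse 11_3, which had the highest Foxp2 (396), Etv1 was 1362. Mouse 8_4 had the lowest Fezf2 (538) and Etv1 (1223) of the R. flavefaciens group, while its Bcl11b (1674) and Foxp2 (272) were not below the controls.

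The genes most like the upper minus deep score outside the 10 markers, by Pearson's r over 24 mice with group means taken off, were Hpca (0.85), Rtn4rl1 (0.85), Cpne5 (0.84), Pdzrn3 (0.84) and Olfm2 (0.83). Hpca encodes hippocalcin, a neuronal calcium sensor. The most opposed were Hs3st4 (-0.88), Rprm (-0.87), Zfpm2 (-0.86), Syt6 (-0.86) and Gng12 (-0.85). Of these, Hs3st4, Rprm, Zfpm2 and Syt6 are known from layer 6 and stood on the list of other deep layer genes. The median r of all genes with the score was 0.00.

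Further layer genes were looked up from lists. Of 20 other deep layer genes all were tested, Ccn2 under its older symbol Ctgf. None of the 20 passed the adjusted test of limma in any comparison. Their score had an r of 0.83 with the deep layer score over the 24 mice, with group means taken off. It was 0.71 without the 2 farthest mice (rho 0.78 over all mice). The counts of these genes are therefore not independent of those of the 5 deep markers. For R. flavefaciens averaged over duloxetine, 9 of 20 were lower and 0 higher at the unadjusted threshold, against 10.4 percent of all genes lower, with a median of -0.17. Under the alternatives other than leaving out 1 mouse 9 to 11 were lower. When each mouse was left out, 8 (without mouse 12_2) to 11 (without mouse 8_3 or mouse 11_4) were lower. Without mice 8_4 and 11_4 the count was 11. The smallest p-value was that of Parm1, a layer 5 gene, at -0.25 ± 0.065 (adjusted p = 0.0983 by limma). Parm1 had 1121 ± 59.1 normalized counts in controls, 1124 ± 74.8 with duloxetine, 953 ± 173 with R. flavefaciens and 955 ± 136 with both. With DESeq2 on recovered reads, Parm1 (-0.23, adjusted p = 0.0279) and Deptor (-0.16, adjusted p = 0.0448) passed in this comparison, where 361 of all genes passed, against 4 with limma. Deptor encodes an inhibitor of the kinase mTOR. The most abundant, Tbr1, a T-box factor of layer 6, was at -0.15 ± 0.046 (adjusted p = 0.120), with 2811 ± 216, 2880 ± 182, 2563 ± 282 and 2588 ± 175 in the same order. With limma, Tbr1 passed the adjusted test without mouse 8_3 (-0.17, adjusted p = 0.0499) and Parm1 without mouse 9_2 (-0.28, adjusted p = 0.0453). In these fits 135 and 69 of all genes passed, against 4 with all mice.

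For R. flavefaciens alone against control 8 of 20 were lower and 0 higher, against 10.8 percent of all genes lower, with a median of -0.19. Parm1 again had the smallest p-value (-0.25 ± 0.092, adjusted p = 0.138 by limma), and it passed the adjusted test without mouse 9_2 (-0.32, adjusted p = 0.0423). In that fit 616 of all genes passed, against 4 with all mice. The number of the 20 genes that were lower ran from 4 (without mouse 9_3) to 12 (without mouse 8_3) when each mouse was left out. It was 5 without mouse 7_2 or mouse 9_1, and 6 without mice 8_4 and 11_4. For both against control 5 of 20 were lower and 0 higher, against 8.73 percent of all genes lower, with a median of -0.15, led by Ldb2, a LIM domain cofactor (-0.19 ± 0.065, adjusted p = 0.173). That count ran from 2 (without mouse 12_2) to 7 (without mouse 2_2) when each mouse was left out. It was 3 after 75th percentile rescaling or quantile normalization, 7 with only the groups compared in the fit and 6 without mice 8_4 and 11_4. For both against duloxetine 5 of 20 were lower and 0 higher, where 5.90 percent of all genes passed in either direction, with a median of -0.13. The smallest p-value there was that of Deptor (-0.22 ± 0.068, adjusted p = 0.816 by limma). For duloxetine alone and averaged over bacterium, 0 of 20 passed the unadjusted threshold, where 3.83 and 14.9 percent of all genes passed, with medians of -0.02 and 0.03. For both against R. flavefaciens 2 of 20 were higher and 0 lower, with a median of 0.03, where 19.7 percent of all genes passed. The interaction gave 1 of 20 higher and 0 lower, with a median of 0.09, where 7.53 percent passed.

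**Figure D4:**
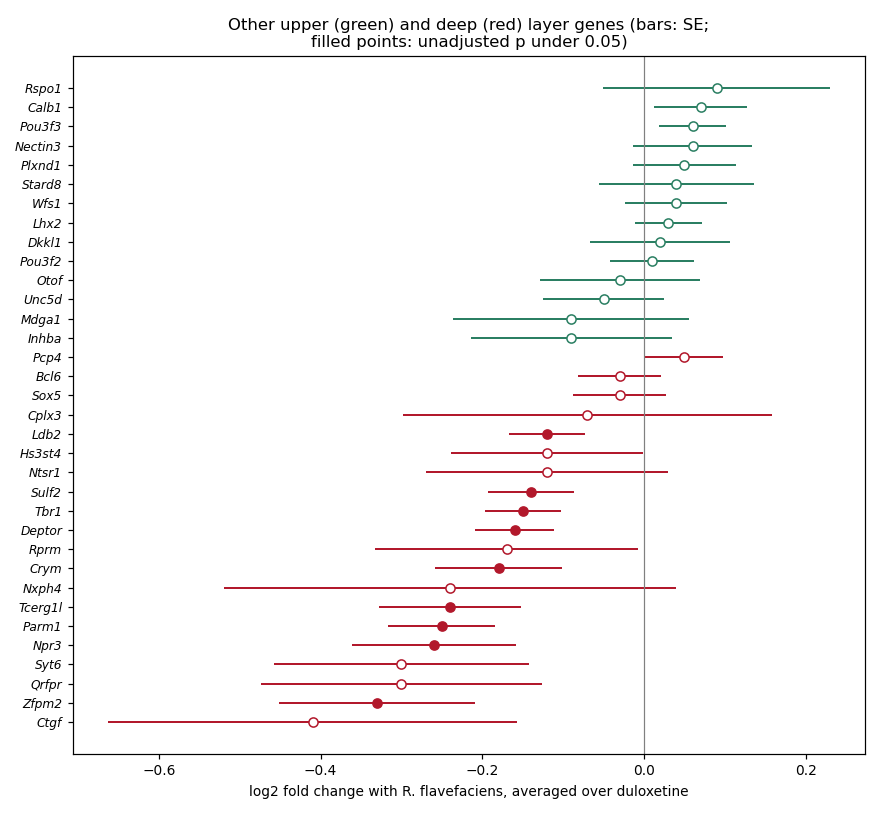
Log2 fold change with R. flavefaciens averaged over duloxetine (x axis, 12 mice against 12, bars are SE) of 14 other upper layer genes (green) and 20 other deep layer genes (red), filled where the unadjusted p was below 0.05. Of the deep genes 19 of 20 lie below 0 and 9 are filled, and of the upper genes 4 of 14 lie below 0 and 0 are filled.

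Of 15 other upper layer genes 14 were tested, and Scnn1a, with a mean of 8.86, was below the minimum. None passed the adjusted test of limma in any comparison, and for R. flavefaciens averaged over duloxetine 0 of 14 passed the unadjusted one by limma, edgeR or DESeq2, with a median of 0.03, against 10.4 percent of all genes lower and 18.1 percent in either direction. After quantile normalization 1 was higher. Wfs1, the most abundant, was at 0.04 ± 0.062, and Pou3f3, which had the smallest p-value, at 0.06 ± 0.040 (adjusted p = 0.482). Averaged over the bacterium, duloxetine gave Pou3f2 the smallest p-value (-0.15 ± 0.051, adjusted p = 0.156). For R. flavefaciens alone against control 1 of 14 was lower and 1 higher at the unadjusted threshold, against 10.8 percent of all genes lower and 19.6 percent in either direction. When each mouse was left out, 0 or 1 was lower and 0 to 2 were higher, with none in either direction without mouse 1_1 or mouse 9_3, and after quantile normalization 3 were higher. For both against R. flavefaciens 4 were lower and 1 higher, with a median of -0.09, where 19.7 percent of all genes passed in either direction. Pou3f2, a POU factor of upper layer neurons, had the smallest p-value there (-0.22 ± 0.072, adjusted p = 0.0935 by limma) and passed the adjusted test without mouse 12_4 (-0.26, adjusted p = 0.0453). In that fit 474 of all genes passed the adjusted test, against 334 with all mice. The interaction gave 1 of 14 lower and 1 higher, with a median of -0.09, where 7.53 percent of all genes passed, and the comparisons of both with control and with duloxetine gave 0 of 14, the former 1 lower without mouse 1_1, 9_1 or 12_4 and with only the groups compared in the fit. Over 24 mice the score of the other upper genes and that of the other deep genes, which share no gene with the 10 markers, had an r of -0.85 (rho -0.83), which was -0.84 without the 2 farthest mice. Within groups it ran from -0.91 to -0.44.

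Of the 8 regulators of projection neurons, 0 passed the adjusted test of limma in any comparison. For R. flavefaciens averaged over duloxetine, 2 of 8 were lower and 0 higher at the unadjusted threshold, against 10.4 percent of all genes lower, with a median of -0.05. Without mice 8_4 and 11_4 this was 1 of 8. The smallest p-value was that of Nfib (-0.10 ± 0.043, adjusted p = 0.202), a nuclear factor of deep layer development. The most abundant, Lmo4, was at 0.03 ± 0.041.

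Markers of other cells and tissues moved with the layer genes between mice. The 8 oligodendrocyte and white matter genes, of which Mbp was the most abundant (mean 10868), summed to 14913 to 40523 normalized counts in controls, 16071 to 48670 with duloxetine, 12925 to 48671 with R. flavefaciens and 12315 to 55113 with both. None of these genes was at 0. Their score had an r of -0.80 with the upper layer score (rho -0.78, and -0.74 without the 2 farthest mice) and 0.49 with the deep layer score. Within groups these ran from -0.94 to -0.44 and from 0.00 (both treatments) to 0.69. Mice 7_2, 9_1 and 12_4, with the lowest sums (12925, 13688 and 12315), had high upper scores, as did 12_3 and 2_2. Mouse 10_2 also had a high upper score (0.14), with a larger sum of 23057. Between groups, 0 of 8 of these genes passed the unadjusted threshold in any comparison, where 3.83 to 19.7 percent of all genes passed, with a median of 0.07 for R. flavefaciens averaged over duloxetine. The 6 excitatory neuron genes had r of 0.79 with the upper and -0.55 with the deep score, the 5 meningeal genes -0.67 with the deep score and 0.41 with the upper, and the 4 claustral genes 0.66 with the deep and -0.63 with the upper. In controls the values of the excitatory neuron genes were -0.20 with the upper and 0.24 with the deep score, whereas in the treated groups they ran from 0.86 to 0.93 and from -0.84 to -0.38. Those of the meningeal and claustral genes kept their sign in each group. The part that the cut of the tissue had in the layer differences was not tested.

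**Figure D5:**
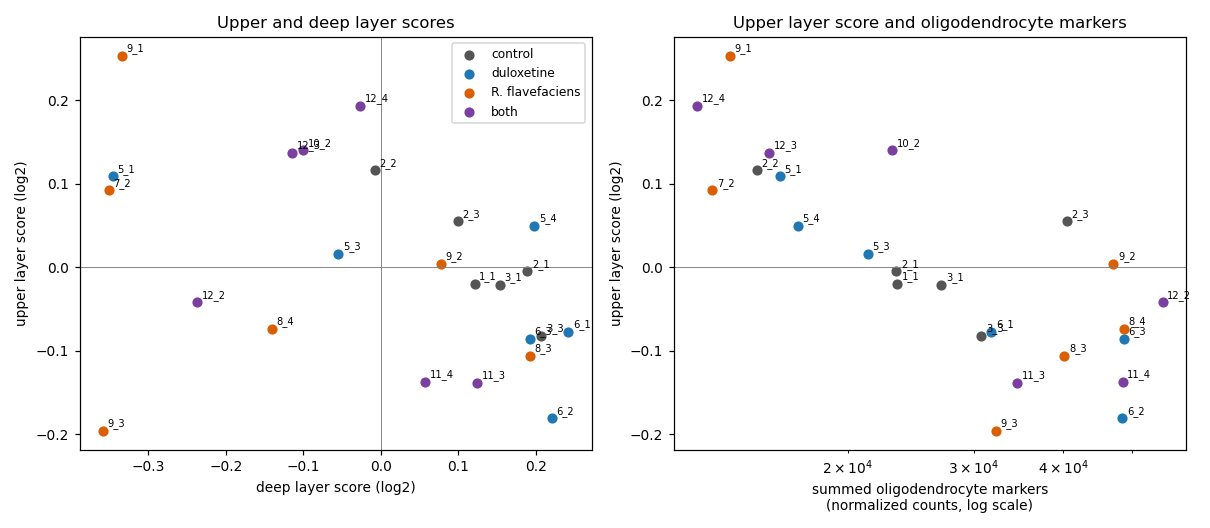
Left, upper layer score (y axis, log2) against deep layer score (x axis, log2) of each of 24 mice, coloured by group and labelled by mouse. Right, upper layer score against the summed normalized counts of 8 oligodendrocyte and white matter genes (x axis, log scale). Mice 5_1, 7_2 and 9_1 combine a deep score between -0.351 and -0.334 with an upper score between 0.092 and 0.253, and the mice with the lowest sums of these markers, 12315 to 17024, all have an upper score above 0.

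No gene of blood, microglia, striatum or choroid plexus passed the adjusted test of limma in any comparison. At the unadjusted threshold, 18.1 percent of all genes passed in either direction for R. flavefaciens averaged over duloxetine. In that averaged comparison the 4 haemoglobin genes, led by Hbb-bs (mean 313), were all higher (4 of 4, median 0.61, smallest adjusted p = 0.129). They summed to 245 to 423 normalized counts in controls, 271 to 940 with duloxetine, 404 to 929 with R. flavefaciens and 257 to 1019 with both. Against control 4 of 4 were higher with R. flavefaciens alone (median 0.78, where 19.6 percent of all genes passed) and 4 of 4 with both (median 0.73, where 16.8 percent passed). With duloxetine alone 0 of 4 passed (median 0.29, 3.83 percent of all genes), as did 0 of 4 for both against duloxetine (median 0.44, 5.90 percent). The score of the haemoglobin genes had an r of 0.07 with the deep and -0.46 (rho -0.49) with the upper layer score, the latter being 0.44 in controls and -0.64 to -0.37 in the treated groups.

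Of 6 microglial genes, led by Csf1r, 3 were higher at the unadjusted threshold for R. flavefaciens averaged over duloxetine, with a median of 0.13 and a smallest adjusted p of 0.0983 by limma. Against control 4 of 6 were higher with R. flavefaciens alone (median 0.20, where 19.6 percent of all genes passed in either direction), 4 of 6 with duloxetine alone (median 0.18, where 3.83 percent passed) and 5 of 6 with both (median 0.23, where 16.8 percent passed). For both against duloxetine 0 of 6 passed, with a median of 0.06, where 5.90 percent of all genes passed. Their score had an r of -0.34 with the deep score (0.54 in controls, -0.67 to -0.26 in the treated groups) and -0.42 with the upper.

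For R. flavefaciens averaged over duloxetine, 2 of the 10 striatal genes and 2 of the 3 choroid plexus genes measured were higher at the unadjusted threshold (medians 0.19 and 0.96), where 18.1 percent of all genes passed. The choroid plexus gene Clic6 (mean 10.4) reached the minimum of 10 only through the groups with bacterium. Its means were 6.4 in controls, 4.54 with duloxetine, 17.9 with R. flavefaciens and 12.9 with both. Ttr had 1.2, 16.6, 126 and 25.4 in the same order, with a highest value of 657 with R. flavefaciens. The choroid plexus count is thus only a description. Striatal genes had r of 0.26 with the deep and -0.40 with the upper score. Group medians of the striatal sum were 3081 in controls, 3053 with duloxetine, 2888 with R. flavefaciens and 3006 with both. Without mice 8_4 and 11_4, 1 striatal gene was higher and 2 were lower in the averaged comparison (median -0.13), and 0 of the 3 choroid plexus genes passed (median 0.51), while 4 of 4 haemoglobin genes (median 0.55) and 4 of 6 microglial genes (median 0.14) were higher. Of the 6 astrocyte, 6 endothelial, 6 inhibitory neuron, 5 meningeal, 4 claustral and 2 olfactory bulb genes measured, 0 passed the unadjusted threshold in the averaged comparison. Of the 6 excitatory neuron genes 1 was higher and 1 lower. The part of blood, microglia and striatal tissue in the layer differences was not tested beyond the values without mice 8_4 and 11_4.

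Depth and transcript length were set beside the results. The logarithm of recovered reads had r of 0.18 with the upper and 0.25 with the deep score. The transcripts of the 10 markers were between 1955 and 12862 bases long. Over the 11953 tested genes in that range, the median log2 fold change for R. flavefaciens averaged over duloxetine was -0.01, and 12.1 percent were lower at the unadjusted threshold. Over all genes tested these were 0.00 and 10.4 percent. The part of transcript length in the layer differences was not tested beyond these values.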

How the data were processed

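The 10 layer markers and all lists of other genes were chosen with earlier results of these data known. According to the methods, the authors mapped the reads with TopHat2 to GRCm38.p5. The submitters' processing notes name TopHat2 2.1.0, Bowtie2 2.2.6, DESeq2 1.18.1 and the build mm9, and the gene positions of the table match GRCm38 (GENCODE M21) for 14253 of 15438 matched IDs. The counting tool, the strand setting and the filter are not given in the sources used here. The deposited signal values are gene counts that the authors normalized with DESeq2, that is, divided by 1 size factor per mouse. Of 370875 values above 0, 99.997 percent were whole multiples of 1 step per mouse (tolerance 0.0051), which gave the recovered reads. No column was left unmapped.

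The main test was limma 3.58.1 (R 4.3.3, trended prior, two-sided) on log2(value + 1) for the 14974 genes whose mean reached 10, with all 4 groups of 6 mice in 1 fit and Benjamini-Hochberg adjustment within each of 8 comparisons. Fold changes are on this scale. Intervals of 95% use 20 residual degrees of freedom. DESeq2 1.42.0 and edgeR 4.0.16 on recovered reads, other pseudocounts, filters, scalings, a block on the first number of the mouse label and the removal of each mouse were alternatives. The removal of mice 8_4 and 11_4 and the alternatives for the counts of the other layer lists were added after the values were seen. The tests were also run on simulated data, and the outcome is not reported here. Scores, correlations and motifs were computed with Python 3.11.15, numpy 2.4.6 and pandas 2.3.3, and drawn with matplotlib 3.10.9.

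The text names the 10 markers. Of the other layer lists it names genes with an adjusted p below 0.05, of which limma gave none over all 24 mice, and otherwise the most abundant gene and the one with the smallest p-value. It also names the 5 genes most like and the 5 most opposed to the upper minus deep score. Other genes named were chosen after their values were seen. The lists covered other upper and deep layer genes, projection neuron regulators, excitatory and inhibitory neurons, striatum, white matter and oligodendrocytes, microglia, astrocytes, endothelial cells, choroid plexus, meninges, blood, claustrum and olfactory bulb. The result of 1 gene among the projection neuron regulators is not reported here.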

Additional observations from a re-analysis of the deposited data

Results flagged for a closer look

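Within the groups of 6, 52 sets of values were examined for a mouse that stood far from the others, and chance flags about 1 in 20 such sets. In 2 of them a mouse stood apart by Dixon's test at the 95% level. In controls, Foxp2 was 226 normalized counts in mouse 2_2 and at least 254 in the others, the gap being 0.744 of the group's range. With both treatments, Bcl11b was 1867 in mouse 11_4, where the next value was 1570 and the gap was 0.642 of the range. Mouse 11_4 had 5218 summed counts of striatal genes, and without it the log2 fold change of Bcl11b for both against control was -0.26.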

How the results depend on the processing

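The number of layer markers past the adjusted threshold was 0 in all 8 comparisons under every alternative run, with the exceptions of R. flavefaciens averaged over duloxetine with DESeq2, where it was 1 (Fezf2), and of R. flavefaciens alone against control, where it ran from 0 to 1 when each mouse was left out (1 without mouse 8_3). No direction reversed for a marker at an unadjusted p below 0.05. The score differences moved by less than the spread within groups. That spread, 0.27, was as large as the largest difference, so this bound says little about how steady they were. When each mouse was left out, R. flavefaciens minus control ran from 0.18 to 0.36 and both minus control from 0.16 to 0.26. The sign changed for duloxetine minus control (-0.10 to 0.08), both minus R. flavefaciens (-0.16 to 0.01) and the interaction (-0.18 to 0.02), among others. The number of calls over all genes depended on the setting. For R. flavefaciens alone it was 4 with limma, 497 with DESeq2, 4 with edgeR, 221 with the block and 0 with only the compared groups, and 0 to 616 when each mouse was left out. For both against control it was 15, 217, 17, 59 and 196 in the same order, 30 with a minimum mean of 50, and 5 to 154 without single mice. For both against R. flavefaciens it was 334, 610, 327, 533 and 0, and 47 to 577. For R. flavefaciens averaged over duloxetine it was 4, 361 with DESeq2 and 1 to 135, and for duloxetine averaged over the bacterium 154, 317 with DESeq2, 255 with the block and 46 to 260. Duloxetine alone gave 0, and 1 with DESeq2. No paired analysis was possible because no mouse label is shared between groups. The first label number is not shared between groups either, so the block on it cannot separate an effect of that number from treatment. Its consensus correlation was negative, at -0.045, and where a count with the block is given above it was larger than the main one. Depth ranged from 12811413 to 15607343 reads, and with 6 mice per group the intervals were widest for Foxp2, Lamp5 and Tle4.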
